A study of Rattus norvegicus with 21 samples.

Results

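The comparison described here set left ventricles of old female rats treated with relaxin (24-month RLX, 4 rats) against left ventricles of young female rats (9-month control, 4 rats), to ask which transcripts still differed from young hearts after treatment. The RLX group comprised rats 1, 2, 4 and 6, and the 9-month group rats 1, 3, 4 and 5, chosen by their labels alone, so that 8 of the 21 libraries and all 26597 genes of the deposited tables entered. All animals were F-344/Brown Norway rats. The 24-month RLX rats received 400 µg/kg/day of RLX for 14 days from a subcutaneous osmotic mini pump, whereas controls received the sodium acetate vehicle. Male rats of the same ages and treatments (3 per group) and vehicle-treated 24-month females (4 rats) are given beside the main values. The 2 groups differed in both age and treatment, so the effect of age and the effect of RLX cannot be told apart in this comparison. Rats of 9 months given RLX were not analysed here.

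Relaxin is a peptide hormone of pregnancy that acts through the receptor Rxfp1 and is known for widening vessels and for limiting collagen deposition. The aging ventricle is known for interstitial fibrosis, accumulation of macrophages and other immune cells, a return of fetal muscle genes such as natriuretic peptides and skeletal actin, and a decline in the oxidation of fatty acids. Promoters of genes induced by interferon-gamma often hold a palindrome called GAS, whereas those of genes induced by type I interferons often hold the element called ISRE. Muscle actin genes carry the CArG box, the binding site of serum response factor.

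Irgm, Ifi47 and Acta1 are among the genes whose levels did not overlap between the 2 groups, and Igtp and Tap1 were lower at an unadjusted p under 0.05, so stretches of 5 promoters are printed first. Each runs from 130 bases before to 30 bases after the RefSeq transcription start (assembly GRCr8), 5′ to 3′ on the strand of the gene. Capitals mark the ISRE core (TTTC, any 2 bases, then TTTC, either strand), the GAS palindrome (TTCNNNGAA, its own reverse complement), the CArG box or the TATA box (TATAAA, strand of the gene only). The 3 GTPase genes Irgm (chr10:33742549-33742708, minus strand), Igtp (chr10:42874917-42875076, plus strand) and Ifi47 (chr10:33798614-33798773, plus strand) are shown with Tap1 (chr20:4668514-4668673, minus strand), the peptide transporter of antigen presentation, and Acta1 (chr19:68784165-68784324, minus strand), skeletal muscle alpha-actin.
Irgm: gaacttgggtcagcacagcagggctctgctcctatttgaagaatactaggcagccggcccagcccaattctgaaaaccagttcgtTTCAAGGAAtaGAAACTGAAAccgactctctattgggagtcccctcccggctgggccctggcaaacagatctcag
Igtp: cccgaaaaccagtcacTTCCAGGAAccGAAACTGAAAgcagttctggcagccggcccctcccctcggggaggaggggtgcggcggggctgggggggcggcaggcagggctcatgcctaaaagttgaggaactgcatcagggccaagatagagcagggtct
Ifi47: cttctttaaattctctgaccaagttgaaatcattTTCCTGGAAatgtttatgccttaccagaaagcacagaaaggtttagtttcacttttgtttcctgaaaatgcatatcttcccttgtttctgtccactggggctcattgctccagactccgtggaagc
Tap1: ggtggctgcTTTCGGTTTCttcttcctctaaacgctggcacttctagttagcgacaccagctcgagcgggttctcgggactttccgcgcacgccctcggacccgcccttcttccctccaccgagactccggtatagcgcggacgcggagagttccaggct
Acta1: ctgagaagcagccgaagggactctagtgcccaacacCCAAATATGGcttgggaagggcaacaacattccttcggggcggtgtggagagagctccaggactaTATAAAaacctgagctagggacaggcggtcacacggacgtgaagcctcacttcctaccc
In Irgm the GAS begins at position -45 and the ISRE core at -34, and in Igtp the same pair of motifs begins at -114 and -103. Ifi47 has a GAS at -96 and another at -212, outside the stretch shown, and no ISRE core in its window of 250 bases before to 50 bases after the start. Tap1 has an ISRE core at -121, and Acta1 a CArG box at -94 followed by a TATA box at -29. No marked motif overlaps another. Among all 33469 promoter windows of that length, 3.92% held the ISRE core, 8.87% a GAS, 1.64% a CArG box and 8.8% a TATA box. Of 41 interferon response genes tested, 32 had a window, and 19 of these held an ISRE core and 13 a GAS. Of 13 genes of MHC class I presentation, 11 had a window and 7 of these an ISRE core. Of 23 sarcomere genes, 16 had a window and 5 of these a CArG box. A match of letters describes the window and is not evidence of binding.

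Total counts ran from 13793068 to 15857194 in 24-month RLX females and from 15233787 to 17861724 in 9-month females. The libraries held the transcripts of ventricular muscle, with Myl2, the ventricular regulatory light chain, at 3373 to 4955 CPM in RLX hearts and 3152 to 3809 CPM in 9-month hearts. CPM denotes counts per 1e6 of the TMM-normalized library size. The share of counts from the mitochondrial genome averaged 41.5% ± 4.28 in RLX hearts and 35.9% ± 3.85 in 9-month hearts (SD, n = 4 each), with ranges that overlapped (36.5 to 46.8% with RLX and 31.1 to 39.9% at 9 months, exact permutation test, 2-sided p = 0.114, where 4 against 4 cannot go below 0.0286). One library stood apart, since RLX rat 4 carried red cell transcripts described with the blood genes. GEO's design text speaks of technical replicates while the labels number rats, so p-values measure the spread between these libraries.

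Few genes passed the study's call rule, in which the FDR is 0.05 or less, the fold change in either direction exceeds 1.5 and 1 of the 2 groups averages 1 RPKM or more (RPKM being reads per kilobase of transcript, scaled to library size). Of 12570 genes tested with edgeR's quasi-likelihood test, 1 was called (0.00796%), Cnpy1, which was higher in RLX hearts, and none was called lower. At an unadjusted p under 0.05 there were 697 genes higher (5.54%) and 738 lower (5.87%) with RLX, and the median log2 fold change over all genes was 0.005. The 4 RLX and the 4 9-month libraries did not overlap in CPM for 833 genes (6.63%), of which 363 were higher (2.89%) and 470 lower (3.74%). After Cnpy1, the smallest adjusted p was 0.110, and 93 genes had an adjusted p of at most 0.2. DESeq2 called 41 genes (0.326%, 28 higher and 13 lower) and edgeR's exact test 47 genes (0.374%, 32 higher and 15 lower), with 39 in both (27 higher, 12 lower), whereas voom with sample quality weights called 1. Leaving out 1 library gave 1 to 4 calls. Without RLX rat 2 there were 3, adding Col8a1 and Cilp, and without 9-month rat 4 there were 4, adding Maoa, Postn and Ephx4. Without RLX rat 4, 9-month rat 1 or 9-month rat 5 there were 2, adding Rps2-ps6, Acta1 and Postn in turn. The smaller sets below are therefore described by their values, and with 1 call in 12570 genes no list contained a called gene. Counts of list members at an unadjusted p under 0.05 stand beside 5.54% of all genes higher and 5.87% lower.

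**Figure D1:**
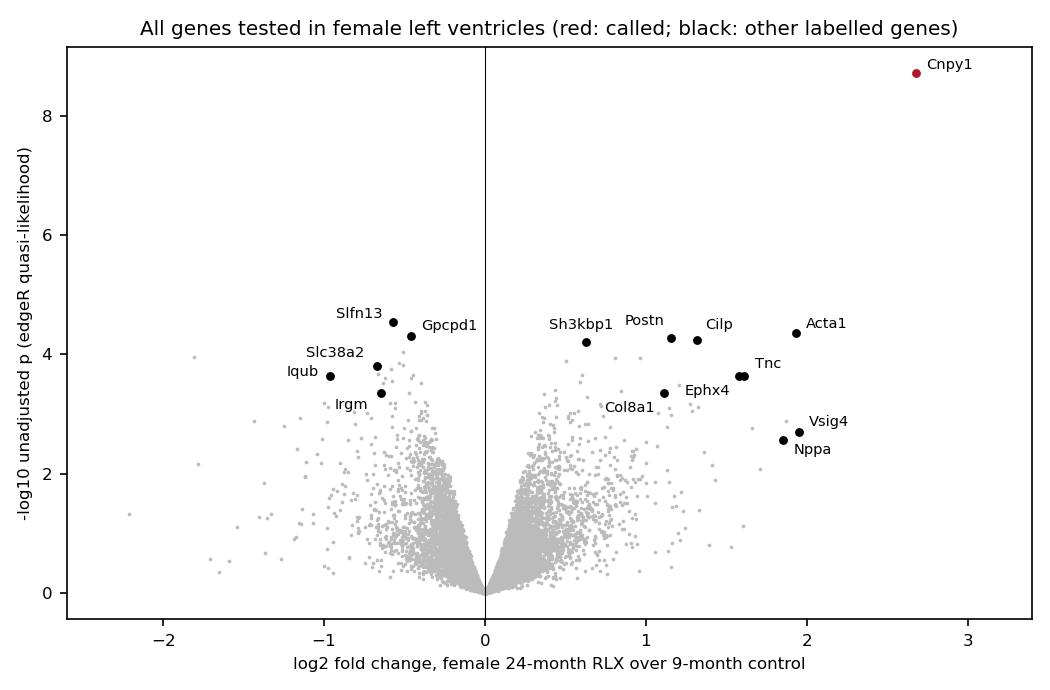
Log2 fold change (x axis, 24-month RLX over 9-month control females, 4 libraries each) against −log10 of the unadjusted p of edgeR's quasi-likelihood test (y axis) for the 12570 genes tested. Each point is a gene, the red point is Cnpy1 (log2 fold change 2.68, adjusted p = 2.4e-05), the only gene called, black points are other labelled genes, and the 3 hemoglobin genes lie beyond the right edge.

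For comparison, with the same rule 24-month control against 9-month control females gave 352 called genes of 12696 (2.77%), with 49.9% of log2 fold changes positive, and 24-month RLX against 24-month control females gave 0 of 12591, with 1772 at an unadjusted p under 0.05 (14.1%, of which 6.27% higher and 7.81% lower). Each of these comparisons shares libraries with the main one, so their counts and medians are set side by side without a test of the difference.

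Cnpy1, a member of the canopy family linked in zebrafish to fibroblast growth factor signaling, was the one transcript that separated the groups by every tool. It measured 8.71, 7.12, 8.47 and 7.16 CPM in RLX hearts, against 0.98, 1.24, 1.15 and 1.54 CPM in 9-month hearts. All RLX values lay above all 9-month values. The log2 fold change was 2.68 ± 0.18 (SE, edgeR's quasi-likelihood test, adjusted p = 2.4e-05), and it lay between 2.58 and 2.82 with any 1 library left out. In 24-month controls Cnpy1 measured 7.51, 8.09, 5.65 and 8.32 CPM, within or close to the RLX range. The log2 fold change of 24-month controls over 9-month controls was 2.60 (adjusted p = 0.000347). In males it measured 17.1, 17.6 and 12.3 CPM with RLX, against 0.516, 0.846 and 7.41 CPM at 9 months, with 1 young male well above the other two (log2 fold change 2.38 ± 0.78, adjusted p = 0.217).

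Of 10 genes of natriuretic peptides and wall stress, 3 were higher at an unadjusted p under 0.05 (Acta1, Nppa and Myh7), 5 without 9-month rat 4, and none was lower. In all 6 had positive fold changes, and the list median of 0.08 ran from 0.036 without 9-month rat 5 to 0.21 without 9-month rat 4. Acta1, the actin of skeletal and fetal heart muscle, measured 267, 290.2, 292 and 252 CPM in RLX hearts, against 36.9, 68.2, 94.5 and 89.6 CPM in 9-month hearts. The groups were far apart, and the RLX libraries lay closer together (SD 19.4) than the 24-month controls, which measured 213, 101, 822 and 318 CPM. The log2 fold change was 1.93 ± 0.26 (SE), with an adjusted p of 0.11 by edgeR's quasi-likelihood test and 5.12e-14 by DESeq2, and without 9-month rat 1, the lowest library, Acta1 was called. Nppa, atrial natriuretic peptide, measured 789, 434, 702 and 661 CPM with RLX, against 122, 92.6, 328 and 177 CPM at 9 months, again without overlap (1.85 ± 0.42, adjusted p = 0.234 by the quasi-likelihood test, 0.0108 by DESeq2). Among 24-month controls Nppa was 196, 182, 6191 and 997 CPM, a range that spans both other groups. Nppb, the brain natriuretic peptide, was tightly grouped with RLX (470.4 to 490.5 CPM) inside the wider range at 9 months (218 to 565 CPM, log2 fold change 0.38 ± 0.23).

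The pair of myosin heavy chains leaned toward the slow form. Myh6, the fast alpha chain, measured 5302, 6590.0, 7101 and 8409.6 CPM in RLX hearts, against 10372, 7787, 11457 and 8909 CPM in 9-month hearts, so that only RLX rat 6 exceeded the lowest young rat (log2 fold change -0.49 ± 0.15, adjusted p = 0.292). Myh7, the slow beta chain, measured 5815, 4236, 3419 and 4416 CPM with RLX, against 2723, 2912, 3938 and 3567 CPM at 9 months (0.45 ± 0.16, adjusted p = 0.346). Of 23 sarcomere and Z-disc genes tested, 13 had a positive fold change, 2 were higher (Acta1, Myh7) and 2 lower (Myh6 and Myom1, an M-band protein) at an unadjusted p under 0.05, and the list median was 0.08 (0.014 without RLX rat 2). Without RLX rat 1, RLX rat 4, 9-month rat 1 or 9-month rat 4 only 1 was lower, and without 9-month rat 1 only 1 was higher. Of 5 atrial muscle markers 3 were tested, all with positive fold changes (Nppa, Myl7 at 0.54 and Myl4 at 0.41). Only Nppa was without overlap between the groups. The summed level of the 5 was 604.8 to 1025 CPM with RLX, against 203.3 to 428.9 CPM at 9 months. Nppa made up most of this sum in each RLX heart, so the sum does not show that the other markers separated the groups. Sln and Mybphl did not pass the filter on low counts. The part of atrial tissue in the Nppa values was not tested.

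**Figure D2:**
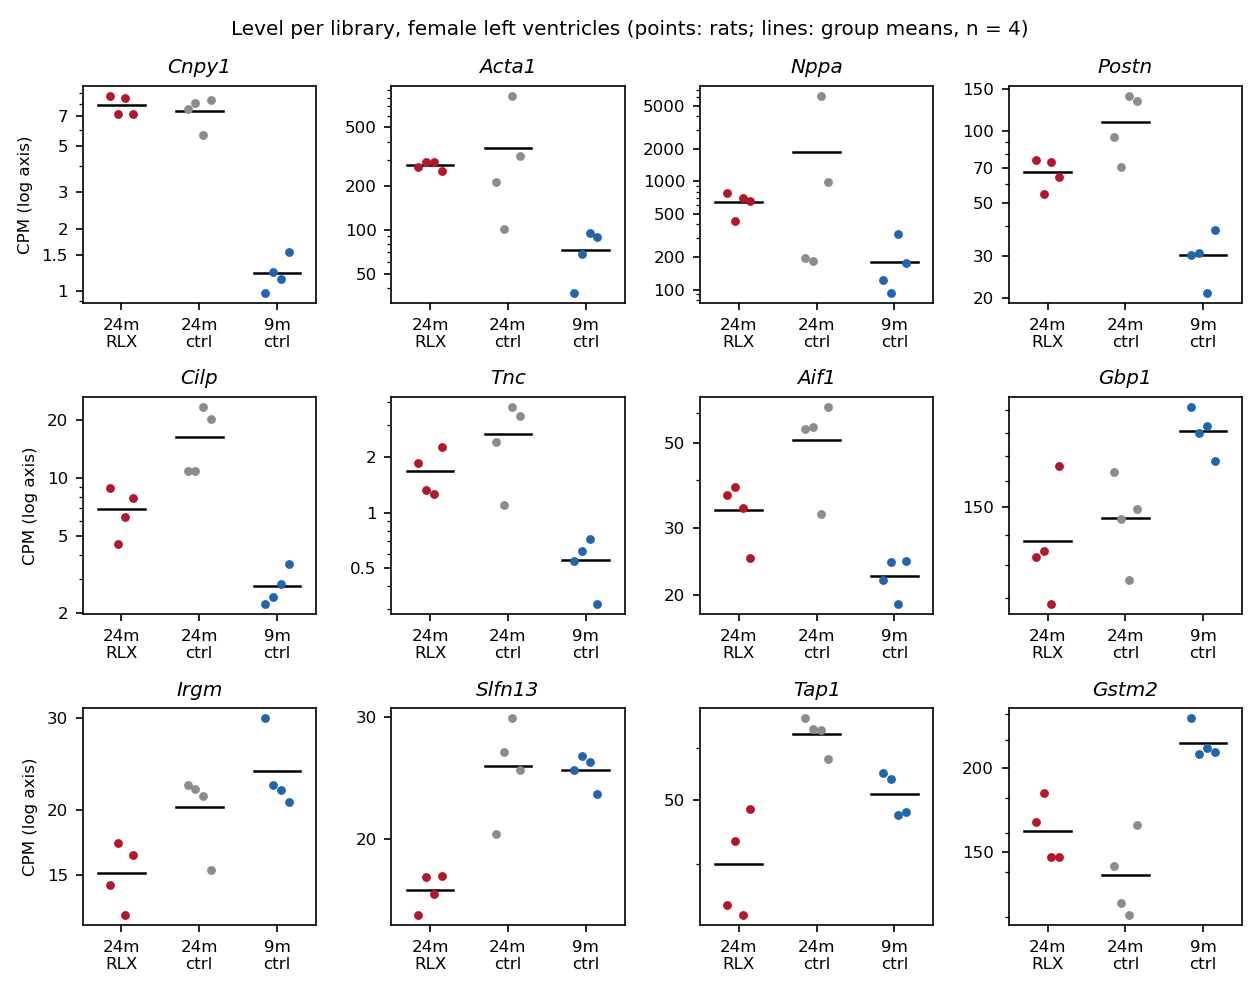
CPM on log axes for 12 genes in 24-month RLX, 24-month control and 9-month control females. Points are rats, 4 per group, and lines are group means. Acta1 lies at 252 to 292 CPM with RLX and at 36.9 to 94.5 CPM at 9 months, and Gbp1 at 118 to 166 CPM with RLX and at 168 to 192 CPM at 9 months.

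A few matrix genes stood above the young level while most did not. Higher at an unadjusted p under 0.05 were 3 of 24 matrix proteins other than collagens and 2 of 26 collagen genes. Over all genes 5.54% were higher, and the collagen count was near that share. Postn, which encodes periostin, measured 75.6, 54.5, 74.3 and 64.3 CPM in RLX hearts, against 30.2, 31, 21 and 38.6 CPM in 9-month hearts. Every RLX library exceeded every 9-month library, with a log2 fold change of 1.15 (SE 0.17, with an adjusted p of 0.11 by edgeR's quasi-likelihood test, 2.45e-07 by DESeq2). Cilp, cartilage intermediate layer protein, chosen after its values were seen, measured 8.83, 4.54, 6.27 and 7.89 CPM with RLX, against 2.23, 2.42, 2.83 and 3.61 CPM at 9 months (1.32 ± 0.22, adjusted p = 0.11). In 24-month controls Postn ran from 70.3 to 139.9 CPM and Cilp from 10.8 to 23.2 CPM. Tnc, tenascin C, a glycoprotein of remodeling matrix, was low throughout, with 1.86, 1.33, 1.27 and 2.27 CPM in RLX hearts, against 0.545, 0.62, 0.724 and 0.318 CPM in 9-month hearts (1.61 ± 0.32). Its groups did not overlap either. Bgn, the proteoglycan biglycan, measured 381, 301, 279.5 and 286 CPM with RLX, against 191, 202, 195 and 239.5 CPM at 9 months (0.59 ± 0.12, adjusted p = 0.137 by edgeR's quasi-likelihood test, 0.00123 by DESeq2). Fn1, fibronectin, and Thbs1, thrombospondin, did not pass (0.14 and -0.17), nor did Fmod and Comp, which had the largest negative fold changes of the matrix list (-1.37 and -1.71). These 4 genes were chosen after their values were seen.

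Among collagens, Col8a1, a short-chain vascular collagen, was the member that stood apart, with 25.7, 12.8, 23.2 and 17.2 CPM in RLX hearts, against 8.22, 7.32, 10.1 and 11 CPM in 9-month hearts (log2 fold change 1.11 ± 0.22, adjusted p = 0.163). Fibrillar collagens did not separate the groups. Col1a1 measured 86.3, 84.6, 129.6 and 141 CPM with RLX, against 108, 56.7, 92 and 144 CPM at 9 months (0.14 ± 0.30), and Col3a1 had a log2 fold change of 0.29 ± 0.26. Of 26 collagens and collagen-processing genes, 2 were higher (Col8a1, Col14a1) and 1 lower (Col15a1) at an unadjusted p under 0.05, with a median of 0.07, which turned to -0.044 with 9 positive without 9-month rat 3. The number higher was 5 without 9-month rat 5 and 1 without RLX rat 1, RLX rat 6, 9-month rat 3 or 9-month rat 4. The number lower was 2 without 9-month rat 3 and 0 without any other library except 9-month rat 1. Of 24 other matrix proteins, 3 were higher (Postn, Tnc, Bgn) and 1 lower (Lamb2, a laminin chain), with a median of 0.16 (0.0072 without RLX rat 1), against 7 higher without RLX rat 2 or without 9-month rat 5. None was lower without RLX rat 1, 2 or 4 or 9-month rat 1, 4 or 5, and 2 were without RLX rat 6. The 12 fibroblast markers summed to 4414 to 5594 CPM in RLX hearts and 4421 to 5879 CPM in 9-month hearts, with 1 of 12 higher (Thy1, log2 fold change 0.71). That count was 3 without RLX rat 2 or 9-month rat 5, 2 without RLX rat 6 and 0 without RLX rat 1, RLX rat 4 or 9-month rat 4. Of 21 genes listed with TGF-beta ligands, receptors and Smads, 3 were higher at an unadjusted p under 0.05 (5 without RLX rat 2, 1 without RLX rat 1). These were Fstl1, Inhbb and Fstl3, which encode secreted proteins, with log2 fold changes of 0.43, 0.84 and 0.68. RLX rat 2 was as low as the young rats for Inhbb (1.56 CPM) and Fstl3 (3.36 CPM). Mmp12, the macrophage elastase, was under 1 CPM in all 8 libraries (1.22 ± 0.46).

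Macrophage transcripts leaned above the young level as a group, with fold changes below 2 for most members. All 19 macrophage and myeloid markers tested had a positive fold change, where 51.1% of all genes did. Of the 19, 9 were higher and none lower at an unadjusted p under 0.05, where 5.54% of all genes were higher, and their median log2 fold change was 0.45. The count ran from 7 without RLX rat 1 to 13 without RLX rat 6. Aif1, a calcium-binding protein of macrophages, measured 36.7, 38.3, 33.9 and 25.1 CPM in RLX hearts, against 21.9, 24.4, 18.9 and 24.6 CPM in 9-month hearts (0.58 ± 0.13, adjusted p = 0.186). Its RLX rat 6 value was just above the highest young rat. Cd68, a lysosomal protein of macrophages, measured 18.3, 14.6, 14.8 and 11.5 CPM with RLX, against 9.42, 11.5, 9.47 and 11.8 CPM at 9 months (0.49 ± 0.14), and here RLX rat 6 lay inside the young range. Folr2, a folate receptor of resident macrophages, measured 38.6, 29.3, 31.2 and 22.1 CPM with RLX, against 19.3, 18.8, 15.9 and 25.6 CPM at 9 months (0.61 ± 0.18). Csf1r, the receptor for macrophage colony-stimulating factor, did not separate the groups, with 56.8 to 104 CPM with RLX and 61.3 to 87.4 CPM at 9 months (0.08 ± 0.19), and Emr1, which encodes F4/80, had a log2 fold change of 0.07.

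The summed level of the macrophage markers was 588.2 to 1040 CPM in RLX hearts, 1006 to 1222 CPM in 24-month controls and 502.1 to 703.9 CPM in 9-month hearts. The list median of 24-month controls over 9-month controls was 0.92, with 13 of its members called in that comparison. In whole tissue, fewer cells of a type and less RNA per cell cannot be told apart. All 16 members tested of a list of Fc and inhibitory receptors had positive fold changes with a median of 0.41, and 6 were higher. The list does not hold every inhibitory receptor, and Fcgr2b, given below, is also on the macrophage list. Lag3 and Ctla4, which are outside it and were chosen after their values were seen, had negative fold changes. Lag3 was lower without overlap, and DESeq2 and edgeR's exact test both called it, whereas the quasi-likelihood test did not (adjusted p = 0.184). Fcgr2b, the inhibitory receptor for immunoglobulin G, measured 3.89, 3.76, 3.94 and 2.78 CPM with RLX, against 2.4, 1.92, 1.69 and 2.71 CPM at 9 months (0.72 ± 0.20, adjusted p = 0.264). The receptor count was 3 without RLX rat 1 or 9-month rat 4 and was 10 without RLX rat 6. Ctsb and Ctss, lysosomal proteases, had log2 fold changes of 0.43 and 0.36, and of 14 cathepsins and cystatins 3 were higher, with 1 without RLX rat 1 or 9-month rat 4 and 5 without 9-month rat 5.

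Among complement transcripts, C1qa, C1qb, C1qc and Itgam are also on the macrophage list, so the lists are not separate observations. C1qa, a chain of the recognition molecule C1q, measured 185, 135, 146 and 92 CPM in RLX hearts, against 86.3, 99.2, 75.6 and 117 CPM in 9-month hearts. RLX rat 1 was highest and RLX rat 6 lay within the young range (log2 fold change 0.56 ± 0.20, adjusted p = 0.358). C1qb and C1qc had log2 fold changes of 0.53 and 0.45. Vsig4, the complement receptor of resident macrophages, measured 5.05, 3.05, 3.94 and 1.32 CPM with RLX, against 1.42, 0.992, 0.241 and 0.796 CPM at 9 months (1.95 ± 0.47, adjusted p = 0.227 by edgeR's quasi-likelihood test, 0.00618 by DESeq2). Here too RLX rat 6 lay within the young range. Of 24 complement genes, 17 had positive fold changes, 6 were higher and none lower at an unadjusted p under 0.05, with a median of 0.19 (0.058 without RLX rat 1 and 0.30 without 9-month rat 5). The number higher was 2 without RLX rat 1 or 9-month rat 1 and 3 without 9-month rat 4.

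Other immune groups gave smaller numbers. Of 25 chemokines and receptors, 20 had positive fold changes (median 0.35, or 0.12 with 16 positive without RLX rat 6) and 3 were higher. Among these 3, the chemokine Cxcl16 measured 38.1, 42.9, 44.6 and 42.2 CPM in RLX hearts, against 28.9, 35, 34.3 and 34.1 CPM in 9-month hearts (0.35 ± 0.09, adjusted p = 0.234). Cxcl13, a B-cell attractant, had a log2 fold change of 0.58. Of 24 T and NK cell markers, 21 had positive fold changes (median 0.27, from 0.12 without RLX rat 6 to 0.46 without RLX rat 1), although Thy1, which fibroblasts also express, was the only one at an unadjusted p under 0.05. Summed T and NK markers were 170.1 to 280.1 CPM with RLX, against 174.7 to 202 CPM at 9 months. That count was 3 without RLX rat 4, 2 without RLX rat 1 and 0 without 9-month rat 1 or 9-month rat 4. Tlr7, a sensor of single-stranded RNA, was the only one of 14 Toll-like receptor genes at an unadjusted p under 0.05 (0.50 ± 0.15).

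Some interferon-inducible GTPases stood below the young level in RLX hearts and others did not. The 4 at an unadjusted p under 0.05 (Irgm, Ifi47, Gbp1 and Igtp) were lower, while Mx1, Mx2, Gbp5 and Gbp2, chosen after their values were seen, did not pass, with log2 fold changes of 0.31, 0.16, 0.17 and -0.14. Irgm, whose promoter carries the adjoining GAS and ISRE core shown above, measured 14.3, 17.3, 12.5 and 16.4 CPM in RLX hearts, against 30.005, 22.3, 21.8 and 20.6 CPM in 9-month hearts (-0.65 ± 0.14, adjusted p = 0.163 by edgeR's quasi-likelihood test, 0.0121 by DESeq2). Irgm and the GTPases Igtp, Ifi47 and Gbp1 act on vacuoles that hold intracellular pathogens. Ifi47 measured 33.7, 38.3, 31.9 and 35.5 CPM with RLX, against 44.6, 55.8, 48.6 and 39.1 CPM at 9 months (-0.43 ± 0.11). Gbp1 measured 133, 135, 118 and 166 CPM with RLX, against 192, 179.8, 183 and 168 CPM at 9 months (-0.39 ± 0.11). Igtp had 26.7, 35.4, 22.9 and 35.6 CPM with RLX, against 43.5, 42.4, 40.1 and 35.4 CPM at 9 months (-0.42 ± 0.14), with the groups touching at the lowest young rat. In 24-month controls Irgm ran from 15.3 to 22.3 CPM.

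Not all interferon genes had that sign. Of 41 tested, 21 had positive fold changes (median 0.07, or -0.0046 without 9-month rat 3), and at an unadjusted p under 0.05 there were 6 lower (among them Irgm, Ifi47, Gbp1 and Igtp), where 5.87% of all genes were lower, and 4 higher. The number higher was 2 without 9-month rat 1. Zbp1, a sensor of left-handed nucleic acid, measured 1.68, 1.33, 1.4 and 1.39 CPM in RLX hearts, against 0.926, 0.496, 0.663 and 0.955 CPM in 9-month hearts (0.92 ± 0.27). Rsad2 and Oas2, antiviral effectors, had log2 fold changes of 0.79 and 0.81. Ifng itself did not pass the filter on low counts, with at most 0.667 CPM in any of the 8 libraries.

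Genes of MHC class I presentation had mostly negative fold changes, whereas those of class II were divided. Tap1 measured 34.7, 43.4, 33.4 and 48.5 CPM with RLX, against 55, 53.9, 47.5 and 48 CPM at 9 months (log2 fold change -0.35 ± 0.12, adjusted p = 0.309). The class I heavy chain RT1-A1 had 79.5, 105, 85.4 and 91.8 CPM in RLX hearts, against 118, 118, 106 and 99.8 CPM in 9-month hearts (-0.29 ± 0.10), and its reads may be shared with other RT1 genes. Of 13 MHC class I genes, 12 had negative fold changes (median -0.14, from -0.23 without RLX rat 2 to -0.084 without RLX rat 4) and 4 were lower (Tap1, RT1-A1 and the immunoproteasome subunits Psmb10 and Psmb8). Only 1 was lower without RLX rat 1, and 2 without RLX rat 4, RLX rat 6 or any of 9-month rats 1, 3 and 5. Of 9 MHC class II genes, 5 had negative and 4 positive fold changes. Among them RT1-Db1 and Cd74, the invariant chain, were lower (-0.50 and -0.27) and the protease Ctss was higher, though not without RLX rat 1 or 9-month rat 4. The number lower was 5 without RLX rat 2, 1 without RLX rat 4 or 9-month rat 1 and 0 without RLX rat 1, 9-month rat 3 or 9-month rat 5. Summed class II level was 723.3 to 1184 CPM in RLX hearts, 1516 to 1959 CPM in 24-month controls and 1039 to 1238 CPM in 9-month hearts.

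**Figure D3:**
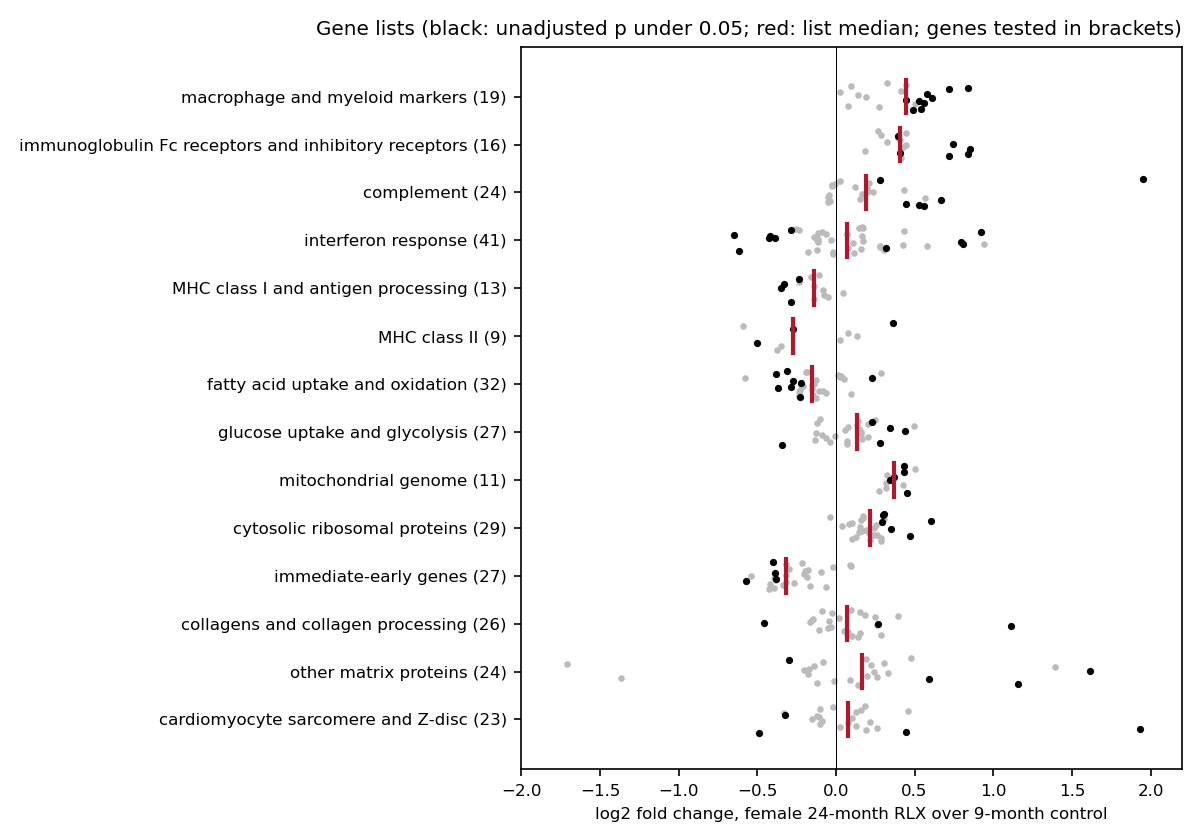
Log2 fold change of 24-month RLX over 9-month control females (x axis) for the members tested of 14 gene lists (rows, number tested in brackets). Each point is a gene, black where the unadjusted p was under 0.05, and red bars are list medians, which run from 0.45 for macrophage markers to -0.32 for immediate-early genes.

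Energy metabolism showed small fold changes. Of 32 genes of fatty acid uptake and oxidation, 25 had negative fold changes (median -0.15, or -0.23 without RLX rat 6), and 7 were lower and 1 higher at an unadjusted p under 0.05. Acadvl, the first enzyme of mitochondrial long-chain oxidation, measured 278, 313, 284 and 356 CPM in RLX hearts, against 377, 403, 439.7 and 374 CPM in 9-month hearts (-0.37 ± 0.11, adjusted p = 0.264). The groups did not overlap. Etfdh and Etfa, which carry electrons from this pathway to ubiquinone, had log2 fold changes of -0.27 and -0.22, and Fabp3, the heart's fatty acid binding protein, one of -0.23. The 1 higher was lost without RLX rat 2, 4 or 6 or 9-month rat 1 or 5. The number lower was 11 without RLX rat 6, 1 without RLX rat 1, 2 without 9-month rat 4 and 3 without RLX rat 4 or 9-month rat 3. Of 27 genes of glucose uptake and glycolysis, 4 were higher (Gapdh, Hk1, Pgam2 and Pdk1) and 1 lower (Slc2a1, the transporter GLUT1), with a median of 0.14 (0.075 without 9-month rat 3). Gapdh measured 3775, 4975, 4528 and 4524 CPM with RLX, against 3252, 3252, 3378 and 3272 CPM at 9 months (0.44 ± 0.10, adjusted p = 0.186). Hk1, hexokinase, measured 92, 90.2, 103 and 105 CPM with RLX, against 84.3, 71.9, 88.6 and 77.3 CPM at 9 months (0.28 ± 0.09). Slc2a1 measured 14.1, 13.5, 16.2 and 12.9 CPM in RLX hearts, against 17.3, 19.5, 17.5 and 17.9 CPM in 9-month hearts (-0.34 ± 0.10).

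Transcripts of the mitochondrial genome leaned upward with the mitochondrial share given above. All 11 tested had positive fold changes (median 0.37, or 0.22 without RLX rat 2) and 5 were higher, including Mt-nd2, a complex I subunit, with 19834, 29361, 23970.1 and 25355 CPM in RLX hearts, against 20479, 19175, 18312 and 14266 CPM in 9-month hearts (0.45 ± 0.14, adjusted p = 0.288). RLX rat 2 was the highest library and RLX rat 1 lay within the young range. The count was 9 without RLX rat 1 or 9-month rat 1, 3 without RLX rat 6 or 9-month rat 4, and 1 without RLX rat 2 or 9-month rat 5. Of 30 nuclear-encoded respiratory chain genes, 23 had negative fold changes (median -0.08, from -0.14 without RLX rat 2 to -0.049 without RLX rat 6) and 2 were lower. That number was 5 without RLX rat 2 and 0 without RLX rat 1, RLX rat 4, 9-month rat 1, 9-month rat 4 or 9-month rat 5.

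Cytosolic ribosomal protein transcripts had positive fold changes in 28 of 29 genes (median 0.22, or 0.11 without RLX rat 2), with 6 higher at an unadjusted p under 0.05. Rplp0, a stalk protein, measured 1236, 1551, 1254 and 1105 CPM with RLX, against 943, 1089, 871 and 1147 CPM at 9 months (0.35 ± 0.13, adjusted p = 0.346). RLX rat 6 lay within the young range. The summed list overlapped between groups, with RLX rats 2 and 4 above the highest young rat, at 11825 to 17032 CPM with RLX and 10741 to 14181 CPM at 9 months. The number higher was 16 without RLX rat 6, 10 without 9-month rat 5, 2 without RLX rat 1 or RLX rat 4, and 1 without RLX rat 2, 9-month rat 1 or 9-month rat 4. Ribosomal protein genes have many near-identical pseudogenes, so their counts may be split between copies.

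Immediate-early genes, which are induced within minutes of a stimulus and often encode transcription factors, leaned below the young level. Of 27 tested, 25 had negative fold changes (median -0.32, or -0.15 without RLX rat 2) and 4 were lower (Atf3, Arc, Egr2, Nr4a3). Atf3, a stress-inducible factor, measured 469, 397, 643 and 484 CPM in RLX hearts, against 643, 650.1, 646 and 666 CPM in 9-month hearts (-0.38 ± 0.13, adjusted p = 0.324). RLX rat 4 lay at the lowest young value while the young rats were tightly grouped. Fos, with the widest spread, measured 289, 143, 425 and 255 CPM with RLX, against 505, 214, 331 and 448 CPM at 9 months (-0.43 ± 0.38). The number lower was 9 without RLX rat 4, 1 without RLX rat 2 and 2 without RLX rat 6 or 9-month rat 4.

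Ion channel and calcium genes mostly overlapped between the groups. Hcn2, a pacemaker channel, measured 29.97, 36.1, 29 and 40.8 CPM in RLX hearts, against 23.9, 18.9, 29.4 and 18.7 CPM in 9-month hearts (0.58 ± 0.16, adjusted p = 0.245). Hcn4, the main pacemaker channel of the sinus node, measured 4.82, 2.43, 3.47 and 4.6 CPM with RLX, against 12, 4.71, 4.4 and 7.33 CPM at 9 months, with 9-month rat 1 far above the rest (-0.89 ± 0.35, and -0.51 without that rat). Among 16 potassium channel genes, Kcnd2 and Kcnip2, a pore and an accessory subunit of the transient outward current, were higher, with log2 fold changes of 0.82 and 0.31. Only 1 of these remained at an unadjusted p under 0.05 without RLX rat 2 or without 9-month rat 1, 3 or 5. Among 16 calcium handling genes, Camk2d, a kinase of calcium signaling, had a log2 fold change of -0.30 ± 0.10, and Atp2a2, the calcium pump SERCA2, one of -0.14 ± 0.12.

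Antioxidant enzymes included 4 of 27 genes lower and none higher (median -0.05), where 5.87% of all genes were lower. Without 9-month rat 3, 1 was higher. Gstm2, a glutathione transferase, measured 166, 183, 147 and 147 CPM in RLX hearts, against 237, 209, 214 and 211 CPM in 9-month hearts (-0.43 ± 0.10, adjusted p = 0.184), and in 24-month controls it ran from 121 to 164 CPM. Gsta4, a related transferase, measured 24.2, 26.4, 19.3 and 18.4 CPM with RLX, against 28, 28.1, 28.9 and 29.6 CPM at 9 months (-0.38 ± 0.11). Both genes kept their groups apart. Nfe2l2, which encodes Nrf2, and Prdx3, a mitochondrial peroxiredoxin, had log2 fold changes of -0.28 and -0.21. Of 17 iron handling genes 4 were higher, namely Tf (transferrin, 0.49), Fth1 and Ftl1 (ferritin chains, 0.38 and 0.35) and the macrophage hemoglobin receptor Cd163, which is also on the macrophage list (0.54).

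Vessel genes gave single members. Figf, the vascular growth factor VEGF-D, measured 6.33, 4.07, 6.81 and 7.82 CPM in RLX hearts, against 3.76, 1.8, 2.59 and 4.3 CPM in 9-month hearts (1.00 ± 0.27, adjusted p = 0.242), and Angpt1, a ligand of the receptor Tie2, had a log2 fold change of -0.58 ± 0.20, while Apln, a vasodilator peptide, had one of 0.58. None of 18 endothelial markers reached an unadjusted p under 0.05, although 2 were higher without RLX rat 2, 2 were lower without RLX rat 4, and 1 was lower without RLX rat 6, 9-month rat 1 or 9-month rat 4. Of 11 smooth muscle markers 3 were lower, among them Cnn1, calponin, with 0.871, 1.88, 1.13 and 0.438 CPM with RLX, against 1.14, 12.5, 1.27 and 5.15 CPM at 9 months. The Cnn1 mean at 9 months rested on rats 3 and 5 (-2.21 ± 0.92, and -1.25 without 9-month rat 3). None of the 3 was lower without RLX rat 1, 2 or 4 or without 9-month rat 3, and 1 was without RLX rat 6 or 9-month rat 5.

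Stress and cell cycle lists had few members at an unadjusted p under 0.05. Hspb7, the cardiovascular small heat shock protein, measured 1119, 1076, 975 and 1021 CPM in RLX hearts, against 797, 825, 804 and 755 CPM in 9-month hearts (0.40 ± 0.09, adjusted p = 0.184). It was the only one of 16 heat shock genes in that set, whose median was -0.01 (0.046 without 9-month rat 1). Without RLX rat 4 there were 6 lower, and without RLX rat 6 there were 2 higher. Of 22 genes of the unfolded protein and integrated stress responses, Trib3 and Asns were higher (0.74 and 0.67), and Dnajb9 and Ddit3 were among 3 lower (-0.38 and -0.40). None was higher without RLX rat 4, and 1 without 9-month rat 3 or 4. The number lower was 1 without RLX rat 1 or 9-month rat 4. Of 27 cell cycle genes 2 were higher, including Ccnd1 (cyclin D1, 0.40), and 3 lower, including Pcna (the replication clamp, -0.28) and Mcm4 (a replicative helicase subunit, -0.38). Without 9-month rat 5 there were 4 higher and 1 lower, and without RLX rat 2 or 9-month rat 1 only 1 was higher. Of 21 senescence and p53 genes, Fas, a death receptor, had a log2 fold change of 0.73 ± 0.27 and Mdm2, the ligase of p53, one of -0.26 ± 0.09. None of 27 genes of Tnf and NF-kappaB signaling and none of 11 sirtuins reached an unadjusted p under 0.05, although 1 Tnf gene was higher without RLX rat 1 or 2, 2 were lower without 9-month rat 1, and 1 sirtuin was lower without 9-month rat 1 or 5. Among 19 genes of interleukin 6 signaling 15 had negative fold changes (median -0.13, from -0.21 without 9-month rat 1 to -0.078 without RLX rat 2).

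The relaxin receptor Rxfp1 was expressed near the filter limit. It measured 0.987, 1.49, 0.734 and 1.32 CPM in RLX hearts, against 1.63, 0.372, 1.63 and 0.796 CPM in 9-month hearts (0.01 ± 0.41), with full overlap. Rxfp2 had no count in any RLX library and at most 0.0603 CPM in a 9-month library. Of the 20 cardiovascular disease genes that the study tabulated, 18 were tested, and 12 had positive fold changes with a median of 0.21, which turned to -0.061 with 8 positive without 9-month rat 1. Nppa was the only one at an unadjusted p under 0.05, with 2 without RLX rat 1 or 9-month rat 4, 3 without 9-month rat 5 and 1 lower without 9-month rat 1 or 3. Inflammatory cytokines varied widely within both groups. Il1b measured 15.6, 18.9, 60.5 and 71 CPM with RLX, against 9.64, 23, 32.9 and 72.8 CPM at 9 months (0.26 ± 0.77), and Tnf measured 9.7, 11.3, 39.6 and 88.8 CPM with RLX, against 8.93, 22.1, 21.7 and 38.2 CPM at 9 months (0.72 ± 0.83). Both cytokines were highest in RLX rats 4 and 6 among treated hearts. Il6 had a log2 fold change of 0.03 ± 0.64 and Spp1, osteopontin, one of 0.22 ± 0.79.

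Several genes outside the lists ranked next to Cnpy1, and they were chosen after their values were seen. Sh3kbp1, an endocytic adaptor, measured 486, 454, 508 and 492 CPM in RLX hearts, against 339, 319, 344 and 259 CPM in 9-month hearts (0.63 ± 0.11, adjusted p = 0.11). Slfn13, a Schlafen family ribonuclease, measured 15.5, 17.6, 16.6 and 17.7 CPM with RLX, against 25.1, 26.3, 25.8 and 23.2 CPM at 9 months (-0.57 ± 0.09, adjusted p = 0.11). Neither gene overlapped between the groups. Gpcpd1, a glycerophosphocholine phosphodiesterase, measured 50.1, 52.4, 51.2 and 49.99 CPM with RLX, against 76.7, 71.5, 67.3 and 65.7 CPM at 9 months (-0.46 ± 0.08). Hpse, heparanase, measured 10.2, 9.62, 11.1 and 8.19 CPM in RLX hearts, against 5.12, 5.58, 4.7 and 6.9 CPM in 9-month hearts (0.81 ± 0.15). Slc38a2, a neutral amino acid transporter, measured 261, 245, 213 and 296 CPM with RLX, against 453, 432, 406 and 329 CPM at 9 months (-0.67 ± 0.13). DESeq2 and edgeR's exact test both called Sh3kbp1, Hpse and Slc38a2. The 20 genes of smallest p comprised 9 higher and 11 lower in RLX hearts, all 20 without overlap, and the males had the same sign for 8 of the 20.

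Hemoglobin transcripts came from 1 library. Hbb measured 2.67, 2.27, 6149.9 and 4.46 CPM in RLX hearts, against 0.545, 2.23, 1.21 and 2.23 CPM in 9-month hearts, and Hba1 measured 1.8, 1.56, 3201 and 2.92 CPM with RLX, against 0.49, 0.868, 1.03 and 1.43 CPM at 9 months. RLX rat 4 alone carried the high values. The fitted log2 fold changes of 9.96 for Hbb and 9.71 for Hba1 became 1.01 and 1.12 without that rat. Slc4a1, the anion exchanger of red cells, was likewise highest in RLX rat 4 (23.4 CPM, with 1.63 to 3.07 CPM in the other RLX libraries and 1.61 to 3.98 CPM at 9 months). The summed erythroid list was 7.493 to 12.64 CPM in RLX rats 1, 2 and 6 and 5.85 to 7.219 CPM in 9-month rats. Without RLX rat 4 there were 2 called genes, as given above.

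The same contrast in males, from 3 RLX-treated 24-month and 3 9-month rats, gave 0 called genes of 12285 by edgeR's quasi-likelihood test, with 1970 at an unadjusted p under 0.05 (16%, of which 7.07% higher and 8.97% lower) and a smallest adjusted p of 0.0905. DESeq2 called 317 genes (2.58%), edgeR's exact test 330 (2.69%) and voom 171 (1.39%). Leaving out 1 male library gave 0 calls without RLX rat 3 or 9-month rat 2, 1 without 9-month rat 4, 3 without RLX rat 2, 19 without RLX rat 7 and 49 without 9-month rat 3. Fold changes had the same sign in both sexes for 42.5% of 12165 genes tested in both. Among genes whose groups were separate in females, 282 of 819 (34.4%) had the same sign in males. The interaction of sex and contrast passed an FDR of 0.05 for 299 of 13048 genes (2.29%), with 156 positive (1.2%) and 143 negative (1.1%) differences, counted as the female minus the male log2 fold change. This count was unstable to single libraries, with 1 gene without male RLX rat 3, 3 without female RLX rat 4, 16 without female RLX rat 2, 26 without female 9-month rat 1, 35 without female 9-month rat 4, 40 without male 9-month rat 4, 48 without female RLX rat 1, 71 without female 9-month rat 3 and 135 without male 9-month rat 2. It was 476 without female RLX rat 6, 506 without male 9-month rat 3 and 588 without male RLX rat 7.

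The contrast for Acta1 differed between the sexes by the interaction test, whose gene count was unstable to single libraries as given above. The paper states different loading concentrations for female and male libraries, and their part in the sex differences was not tested. In males it measured 138, 98.7 and 168 CPM with RLX, against 103, 155 and 247 CPM at 9 months (log2 fold change -0.32 ± 0.30), and the female minus male difference was 2.25 (interaction adjusted p = 0.0329). Postn and Cilp, separate in females, overlapped in males (0.02 ± 0.42 and -0.13 ± 0.51). Ptgfr, the prostaglandin F receptor, was among the genes with the smallest interaction p. It measured 30.9, 25.3, 19.2 and 28.7 CPM in RLX females, against 35.6, 39.1, 37.6 and 41.6 CPM in 9-month females, and 70.7, 67.9 and 63.8 CPM in RLX males, against 16.4, 30.6 and 24.9 CPM in 9-month males. The signs were opposite, with a difference of -2.05. Cyba, the p22phox subunit of NADPH oxidase, had log2 fold changes of 0.32 in females and -1.26 in males.

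**Figure D4:**
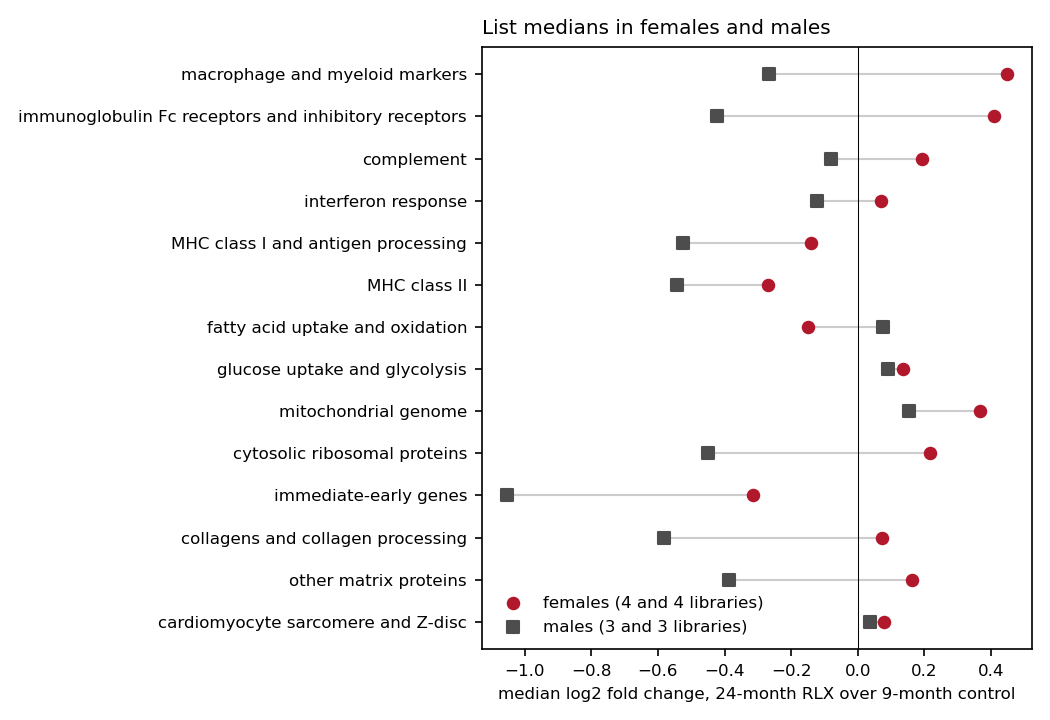
Median log2 fold change of 24-month RLX over 9-month controls (x axis) for 14 gene lists (rows), with circles for females (4 and 4 libraries) and squares for males (3 and 3 libraries). Macrophage markers had medians of 0.45 in females and -0.27 in males, and ribosomal proteins 0.22 in females and -0.45 in males.

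List medians had opposite signs in the sexes for macrophage markers (0.45 in females and -0.27 in males), Fc receptors (0.41 and -0.42), complement (0.19 and -0.08), collagens (0.07 and -0.58, the female median being -0.044 without 9-month rat 3) and ribosomal proteins (0.22 and -0.45), while immediate-early genes (-0.32 and -1.05), MHC class I (-0.14 and -0.52) and MHC class II genes (-0.27 and -0.54) had the same sign. These medians were not tested against each other, and the macrophage and complement lists share members.

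Fold changes also moved with gene length, in opposite directions in the sexes. In females the median log2 fold change was 0.073 in the shortest of 4 equal length classes and -0.0564 in the longest, and in males it was -0.243 in the shortest and 0.169 in the longest. Genes with a positive interaction had a median length of 1126.8 bases and those with a negative one 4787.5 bases, where all genes tested had 2409.8 bases. With the trend on length removed in each library, 30 genes had an interaction in place of 299, and the female contrast had 2 called genes, Cnpy1 and Sh3kbp1.

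**Figure D5:**
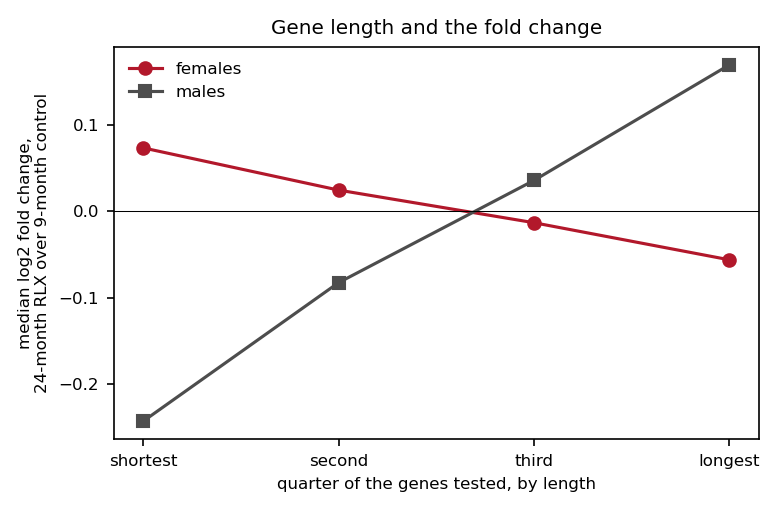
Median log2 fold change of 24-month RLX over 9-month controls (y axis) in 4 equal classes of the genes tested by length (x axis, shortest to longest), with circles for females and squares for males. Female medians run from 0.073 to -0.0564 and male medians from -0.243 to 0.169.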

How the data were processed

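Total RNA of rat left ventricles, depleted of ribosomal sequences, was sequenced by the authors as stranded paired-end libraries on an Illumina NextSeq and mapped with Biomedical Genomics Workbench to a rat genome (build: not given in the sources used here). Deposited counts are whole reads per gene and were used for all tests. The deposited RPKM values (counts per kilobase, scaled by mapped reads, computed by the authors) served the expression limit only. The 4 tables held 26597 genes each, and 7 count columns that occurred in 2 tables were identical. Deposited CPM and TPM columns and the authors' own fold changes and p-values were not used. Depth was similar in both groups and limits low genes most.

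Genes were filtered with filterByExpr, normalized by TMM and tested with the quasi-likelihood test of edgeR 4.0.16 (R 4.3.3) on the 8 libraries alone, with Benjamini-Hochberg adjustment over all genes tested. Calls needed an FDR of 0.05 or less, a fold change over 1.5 either way and 1 RPKM or more as the mean of 1 group. A prior count of 2 was used only for log2 CPM values, which entered the length trend and the check of pairing by rat number. Males were fitted alone, and the sex difference as an interaction. Alternatives were DESeq2 1.42.0, edgeR's exact test, voom of limma 3.58.1, other normalizations and filters, a replicate block, removal of a length trend, and each library left out. Removal of mitochondrial genes, and voom and the length trend for the interaction, were chosen after seeing the data. The fits were tested on simulated data. Promoters are RefSeq sequences of assembly GRCr8. Tables and figures were made with Python 3.11.15, pandas 2.3.3, scipy 1.17.1 and matplotlib 3.10.9.

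Named genes are the called genes, up to 5 members of smallest p and the highest member of each list described, the relaxin receptors, the tabulated genes, F4/80 and up to 5 genes per direction with the smallest interaction p. Others are stated as chosen after their values were seen. The members and lists were chosen with earlier results of these data known. Values of a few genes are not reported here.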

Additional observations from a re-analysis of the deposited data

Results flagged for a closer look

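In 375 groups of 4 female libraries, 23 had a highest or lowest rat whose gap to the nearest other, divided by the range of the group, exceeded Dixon's critical value, and chance gives about 1 in 20. RLX rat 4 was far above the others for Hba1 (gap ratio 1), Hbb (1), Hba2 (1), Slc4a1 (0.934), Fabp4, an adipocyte fatty acid binding protein (0.909), and Pcna (0.83). RLX rat 6 was high for Lamb2 (0.953), Mylk, a smooth muscle kinase (0.839), and Myom1 (0.834), and low for Fcgr2b (0.844). RLX rat 1 was high for Fstl1 (0.837) and RLX rat 2 low for Col15a1 (0.854). Among 9-month rats, rat 5 was high for Lst1 (0.866) and Mmp12 (0.852) and low for Fas (0.913), Cryab, a small heat shock protein (0.843), and Clu, clusterin (0.84). Rat 4 was high for Kcnip2 (0.852), Gapdh (0.846) and Apln (0.84), rat 3 for Galnt18 (0.899) and rat 1 for Gstm2 (0.833), while rat 1 was low for Cxcl16 (0.852).

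For 26 named genes the contrast differed between the sexes by the interaction test, given as the female minus the male log2 fold change. Over all genes, 299 passed that test, against 30 with the length trend removed and 1 without male RLX rat 3. Which of the 26 would remain in those settings is not given here. The signed difference is listed for each gene. The difference was positive for Tmem255b (3.28), Ephx4 (2.62), Acta1 (2.25), Col8a1 (1.73), Cyba (1.59), Crip1 (1.51), Sh3bgrl3 (1.31), Rab3b (1.22), Aloxe3 (1.18), Pgam2 (1.14), Bst2 (0.929), RT1-A1 (0.899) and Rplp0 (0.89). It was negative for Ptgfr (-2.05), Iqub (-1.83), Slc38a2 (-1.53), Ogt (-1.28), Slfn13 (-1.07), Dnajb9 (-0.967), Gbp1 (-0.925), Usp28 (-0.919), Ccar1 (-0.863), Ccnl2 (-0.861), Camk2d (-0.806), Art3 (-0.708) and Cpe (-0.693).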

How the results depend on the processing

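The count of 1 called gene in females became 41 with DESeq2, 47 with edgeR's exact test, 0 with an RPKM limit of 5 and 2 with the length trend removed, and ranged from 1 to 4 with 1 library left out. The rat numbers shared by the groups (1 and 4) did not pair the samples, whose deviations correlated at -0.055 and -0.1. A replicate block by rat number gave 193 calls, or 1 when all 3 female groups were fitted. With the 2 groups alone, that block draws the fold change only from rats 1 and 4, since other rat numbers occur in 1 group. In males it draws only on rats 2 and 3. In males, 0 calls became 317 with DESeq2, 330 with the exact test, 171 with voom, 62 without the count filter, 1 with the length trend removed and 652 with the replicate block, and 0 to 49 with 1 library left out. The 299 interaction genes became 979 with DESeq2, 612 with all 6 groups fitted, 564 with voom and 30 with the length trend removed, and 1 to 588 with 1 library left out. The causes were not tested. Of 187 genes, 170 kept the sign of their female fold change in every alternative. With the replicate block the sign turned for Rxfp1 (-0.91), Il6r (0.10), Gdf15 (0.19), Cst3 (0.24), Tnfrsf1a (0.052), Tnfrsf1b (0.025), Serpinh1 (0.035) and Ifi27 (0.17), and with the block and all 3 female groups for Rxfp1 (-0.056), Il6r (0.039), Tnfrsf1a (0.053) and Serpinh1 (0.044). Il6 was -0.013 with the length trend removed. With 1 library left out, log2 fold changes spanned 0 for Col1a1 (-0.052 to 0.38), Csf1r (-0.12 to 0.20), Cxcl9 (-0.22 to 0.041), Slc4a1 (-0.20 to 1.88), Rxfp1 (-0.26 to 0.26), Il1b (-0.13 to 0.94), Il6 (-0.53 to 0.53), Tnf (-0.17 to 1.10), Gdf15 (-0.53 to 0.27), Spp1 (-0.12 to 1.45), Fgf23 (-0.46 to 0.80), Serpinh1 (-0.072 to 0.040) and Ifi27 (-0.10 to 0.072). Adjusted p-values of single genes near 0.11 depended on the tool, and low genes such as Rxfp1 are limited by depth.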
